A study of Arabidopsis thaliana with 22 samples.

Results

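The transcript levels of 5 *Arabidopsis thaliana* genes, *GI*, *IAA29*, *GAT1_2.1*, AT3G15440 and AT3G55760, were followed on 22 ATH1 arrays. The genes were found by symbol or locus in the probe set annotation, and are 5 of the 13350 genes that it gives as the single gene of a probe set. They were selected on their levels by time and by line in these same arrays, so these differences are given as a description, without a test. The effect of dexamethasone (DEX) on them was tested. *GI* (AT1G22770) and *GAT1_2.1* (AT1G15040) lie on chromosome 1, AT3G15440 and AT3G55760 on chromosome 3, and *IAA29* (AT4G32280) on chromosome 4 of the TAIR10.1 annotation, which lists all of them as protein-coding.

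The RNA came from green tissues of seedlings that carried pGL3::GL3-GR in the *gl3 egl3* double mutant or pGL1::GL1-GR in the *gl1* mutant. GL3 is a bHLH factor and GL1 an R2R3-MYB factor of trichome initiation, and each was fused to the glucocorticoid receptor (GR), which holds the factor inactive until DEX is supplied. Each fusion was driven by the promoter of its own gene, which is active in young epidermis, whereas the RNA was that of the whole green tissue. Seedlings were collected 24 h and 4 h after DEX or Mock treatment, with 2 arrays each for GL3-GR DEX and Mock at 24 h and 3 arrays in each of the other 6 groups. The time of day at collection is not given in the sources used here, and neither is the number of independent transgenic lines behind each fusion.

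*GI* encodes a nuclear protein of the circadian clock, whose transcript in wild-type plants grown in light and dark cycles is highest late in the day, and which links the clock to flowering in long days. *IAA29* encodes a member of the Aux/IAA family of auxin response repressors and is known as a target of PIF transcription factors, which act in shade and darkness. Plants make starch by day and break it down at night, and when sugars run out they induce enzymes that degrade amino acids. *GAT1_2.1* carries a class I glutamine amidotransferase domain. AT3G15440 and AT3G55760 have no name or role in the annotation used here.

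All values are log2 expression values as deposited, and each of the 5 genes passed the filter on low values. This filter kept the 16349 of 22746 probe sets (71.9%) that lay above the 40th percentile of their own array on at least 2 arrays. A value at or below that percentile is called below the filter level here, and differences among such values have no meaning. The lowest value on an array was 2.25 to 2.26 for GL3-GR at 4 h, 2.05 for the same line at 24 h, 1.97 on the 24 h arrays of GL1-GR and 2.1 on its 4 h arrays. The median difference over all probe sets tested was 1.98 between the 24 h and 4 h Mock arrays of GL3-GR, -0.13 between those of GL1-GR, and -2.12 for GL3-GR minus GL1-GR at 4 h. Differences between times and lines are therefore also given after quantile normalisation of the 22 arrays to a common distribution, where those medians were 0.05, -0.00 and -0.04. Line, mutant background and array set cannot be told apart in this design, and neither can time and array set within a line. In RNA from whole tissue, fewer cells of a type and less RNA per cell cannot be told apart either.

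*RCA*, the Rubisco activase gene and a marker of green tissue, was between the 98.98th and the 99.95th percentile on all 22 arrays. *PYK10*, a beta-glucosidase gene known from roots and hypocotyls, lay between the 95.36th and 99.69th percentile on the same arrays, and the root-hair gene *EXPA7* did not pass the filter. These were the 1 of 6 green tissue and 2 of 6 root markers named in the annotation. *PYK10* was 2.53 higher in GL3-GR Mock arrays at 24 h than at 4 h (0.14 after quantile normalisation) and 0.85 higher in GL1-GR (0.39). Its part in the differences below was not tested.

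*GI* was detected at 4 h in both lines and on no array of 24 h. In GL3-GR at 24 h its values were 2.14 and 2.15 in DEX arrays and 2.18 and 2.15 in Mock arrays. At 4 h they were 5.29, 4.44 and 4.28 in GL3-GR DEX arrays, against 5.12, 4.49 and 4.05 in GL3-GR Mock arrays. All 4 arrays of 24 h were below the filter level and all 6 arrays of 4 h above it.

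In GL1-GR at 24 h, *GI* read 2.16 on each of the 3 DEX and the 3 Mock arrays. At 4 h it read 7.49, 7.42 and 7.47 in GL1-GR DEX arrays, against 6.67, 7.26 and 7.32 in GL1-GR Mock arrays. The ranges of the 2 times did not overlap in either line. The 24 h minus 4 h difference of the Mock means was -2.39 in GL3-GR (-3.66 after quantile normalisation) and -4.92 in GL1-GR (-3.99 after quantile normalisation). Because the 24 h level was only bounded by the filter level, *GI* was at least 2.17 lower in GL3-GR and at least 4.66 lower in GL1-GR as deposited. After quantile normalisation these bounds were at least 3.03 in GL3-GR and at least 3.09 in GL1-GR.

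As deposited, the GL3-GR minus GL1-GR difference of *GI* in Mock arrays of 4 h was -2.53, close to the -2.12 of the median probe set. After quantile normalisation it was -0.07. The gene stood between the 54.3rd and 66.7th percentile of the GL3-GR arrays of 4 h, and between the 55.4th and 64.7th percentile of the GL1-GR arrays of 4 h, so that the ranks of the lines overlapped. The order of the *GI* levels was thus 4 h above 24 h in both lines, with the lines not separated at 4 h once the scale was shared. At 24 h the lines cannot be compared, since *GI* was below the filter level in both.

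*IAA29* was above the filter level in GL3-GR at 4 h and in no other line or time. Its 6 values there were 2.84, 7.47 and 6.42 in DEX arrays, against 5.03, 7.28 and 7.77 in Mock arrays. In GL3-GR at 24 h all 4 arrays read 2.13 to 2.14, in GL1-GR at 24 h all 6 arrays read 2.16 to 2.17, and in GL1-GR at 4 h the DEX arrays read 2.37 to 2.44 and the Mock arrays 2.44 to 2.52. The DEX array with sample number 1 fell below the filter level as well, at the 38.0th percentile, while the other 5 GL3-GR arrays of 4 h ranked between the 64.8th and 90.0th.

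The 24 h minus 4 h difference of *IAA29* in GL3-GR Mock arrays was -4.56 (-6.28 after quantile normalisation), or at least 4.31 lower at 24 h as deposited and at least 5.36 lower after quantile normalisation. In GL1-GR the gene was below the filter level at both times and no difference is given. At 4 h, the GL3-GR Mock mean of 6.69 ± 1.46 (SD, n = 3) stood against a GL1-GR Mock mean of 2.47 ± 0.05 (SD, n = 3). This was at least 2.33 higher in GL3-GR as deposited, and at least 5.36 higher after quantile normalisation. The direction was opposite to that of the median probe set, which was lower in GL3-GR.

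*GAT1_2.1* was high at 24 h in both lines. In GL3-GR at 24 h it read 11.59 and 10.80 in DEX arrays, against 10.25 and 11.06 in Mock arrays. In GL1-GR at 24 h it read 10.86, 10.66 and 11.35 in DEX arrays, against 11.01, 10.68 and 8.77 in Mock arrays. The 24 h ranges of the lines overlapped, and the Mock array with sample number 3 of GL1-GR was the lowest of the 10.

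At 4 h *GAT1_2.1* read 8.31, 6.23 and 5.21 in GL3-GR DEX arrays, against 9.46, 3.84 and 4.06 in GL3-GR Mock arrays. In GL1-GR at 4 h it was below the filter level on all 6 arrays, with 2.29 on each DEX array and 2.29, 2.35 and 2.29 on the Mock arrays. The levels of the sets therefore ran from 24 h in both lines, which were not separated, to GL3-GR at 4 h and then to GL1-GR at 4 h. The 24 h minus 4 h difference was 7.84 in GL1-GR Mock arrays (7.04 after quantile normalisation), at least 5.79 as deposited and at least 6.25 after quantile normalisation, and 4.87 in GL3-GR Mock arrays (2.61 after quantile normalisation).

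In GL3-GR the ranges of the 2 times were apart on the deposited scale, yet the ranks overlapped, with the 88.5th to 95.6th percentile at 24 h and the 51.8th to 96.5th at 4 h. The other probe set of *GAT1_2.1* followed the same course at lower values. It read 9.31 to 9.92 in DEX and 8.96 to 9.64 in Mock arrays of GL3-GR at 24 h, and 3.77 to 5.75 in DEX and 3.10 to 6.75 in Mock arrays of GL3-GR at 4 h. In GL1-GR it read 8.95 to 9.71 in DEX and 7.33 to 9.47 in Mock arrays at 24 h, and 2.12 to 2.13 in DEX and 2.12 in Mock arrays at 4 h. Both probe sets thus placed the same GL3-GR array of 4 h (Mock, sample number 1) far above the other Mock arrays.

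AT3G15440 was also higher at 24 h in both lines. In GL3-GR at 24 h it read 8.21 and 8.86 in DEX arrays, against 8.26 and 8.19 in Mock arrays. In GL3-GR at 4 h it read 5.05, 4.52 and 4.09 in DEX arrays, against 5.44, 4.73 and 4.85 in Mock arrays. The ranges of the times did not overlap on the deposited scale, where the median probe set was 1.98 higher at 24 h in Mock arrays. The ranks did not overlap either but came close, with the 70.9th to 77.1st percentile at 24 h and the 56.6th to 69.1st at 4 h.

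In GL1-GR at 24 h, AT3G15440 read 10.78, 10.27 and 9.14 in DEX arrays, against 10.52, 10.60 and 8.48 in Mock arrays. At 4 h it was below the filter level in GL1-GR, with 2.31 on each of the 3 DEX arrays, and 2.47, 2.31 and 2.31 on the Mock arrays. The 24 h minus 4 h difference was 7.51 in GL1-GR Mock arrays (6.75 after quantile normalisation), at least 5.50 as deposited and at least 5.98 after quantile normalisation. In GL3-GR Mock arrays it was 3.22 as deposited but 0.69 after quantile normalisation, below a log2 difference of 1. In GL3-GR DEX arrays it was 3.98 as deposited and 1.49 after quantile normalisation.

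At 24 h, AT3G15440 was lower in GL3-GR than in GL1-GR, with a difference of the Mock means of -1.64 on the deposited scale and -1.65 after quantile normalisation. The ranges of the Mock arrays did not overlap, with 8.26 for the highest GL3-GR array and 8.48 for the lowest GL1-GR array, and neither did those of the DEX arrays, with 8.86 and 9.14. Over both treatments the ranges of the lines overlapped. At 4 h the order was reversed, since the gene passed the filter level on all 6 GL3-GR arrays and on no GL1-GR array. Of the 5 genes, AT3G15440 alone differed by 1 or more between the Mock means of the lines at 24 h.

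The next locus on the chromosome, AT3G15450, was measured by a probe set of its own. It averaged 12.60 ± 0.12 in DEX and 12.46 ± 0.11 in Mock arrays of GL3-GR at 24 h (SD, n = 2 each), and 9.34 ± 0.32 in DEX and 9.33 ± 0.38 in Mock arrays of GL3-GR at 4 h (SD, n = 3 each). In GL1-GR the means were 12.57 ± 0.03 in DEX and 12.53 ± 0.12 in Mock arrays at 24 h, and 6.26 ± 0.34 in DEX and 6.57 ± 0.42 in Mock arrays at 4 h (SD, n = 3 each). As deposited, both neighbours were higher at 24 h than at 4 h in both lines, although AT3G15450, unlike AT3G15440, stood above the filter level on every array. After quantile normalisation, the difference in GL3-GR Mock arrays was only 0.69 for AT3G15440 and 0.82 for AT3G15450. AT3G15430, the locus on the other side, was 0.30 higher at 24 h in GL1-GR Mock arrays and 3.80 higher in GL3-GR Mock arrays. These are deposited values, and the median probe set was 1.98 higher in the same GL3-GR comparison.

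AT3G55760 was detected at 4 h only. Its values in GL1-GR at 4 h were 9.61, 9.62 and 9.02 in DEX arrays, against 9.59, 9.41 and 9.06 in Mock arrays. In GL3-GR at 4 h they were 4.15, 4.09 and 3.97 in DEX arrays, against 4.04, 4.39 and 4.09 in Mock arrays. At 24 h all 10 arrays were below the filter level, with 2.28 in DEX and 2.25 to 2.28 in Mock arrays of GL3-GR, and 2.23 in DEX and 2.23 to 2.27 in Mock arrays of GL1-GR.

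The 24 h minus 4 h difference of AT3G55760 was -1.91 in GL3-GR Mock arrays (-2.71 after quantile normalisation), at least 1.79 lower as deposited and at least 2.54 lower after quantile normalisation. It was -7.11 in GL1-GR Mock arrays (-6.02 after quantile normalisation), at least 6.93 lower as deposited and at least 5.73 lower after quantile normalisation. At 4 h the GL3-GR minus GL1-GR difference of the Mock means was -5.18, and -3.19 after quantile normalisation, without overlap of the arrays. Of the 5 genes, AT3G55760 alone was lower in GL3-GR at 4 h by more than 1 on both scales.

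**Figure D1:**
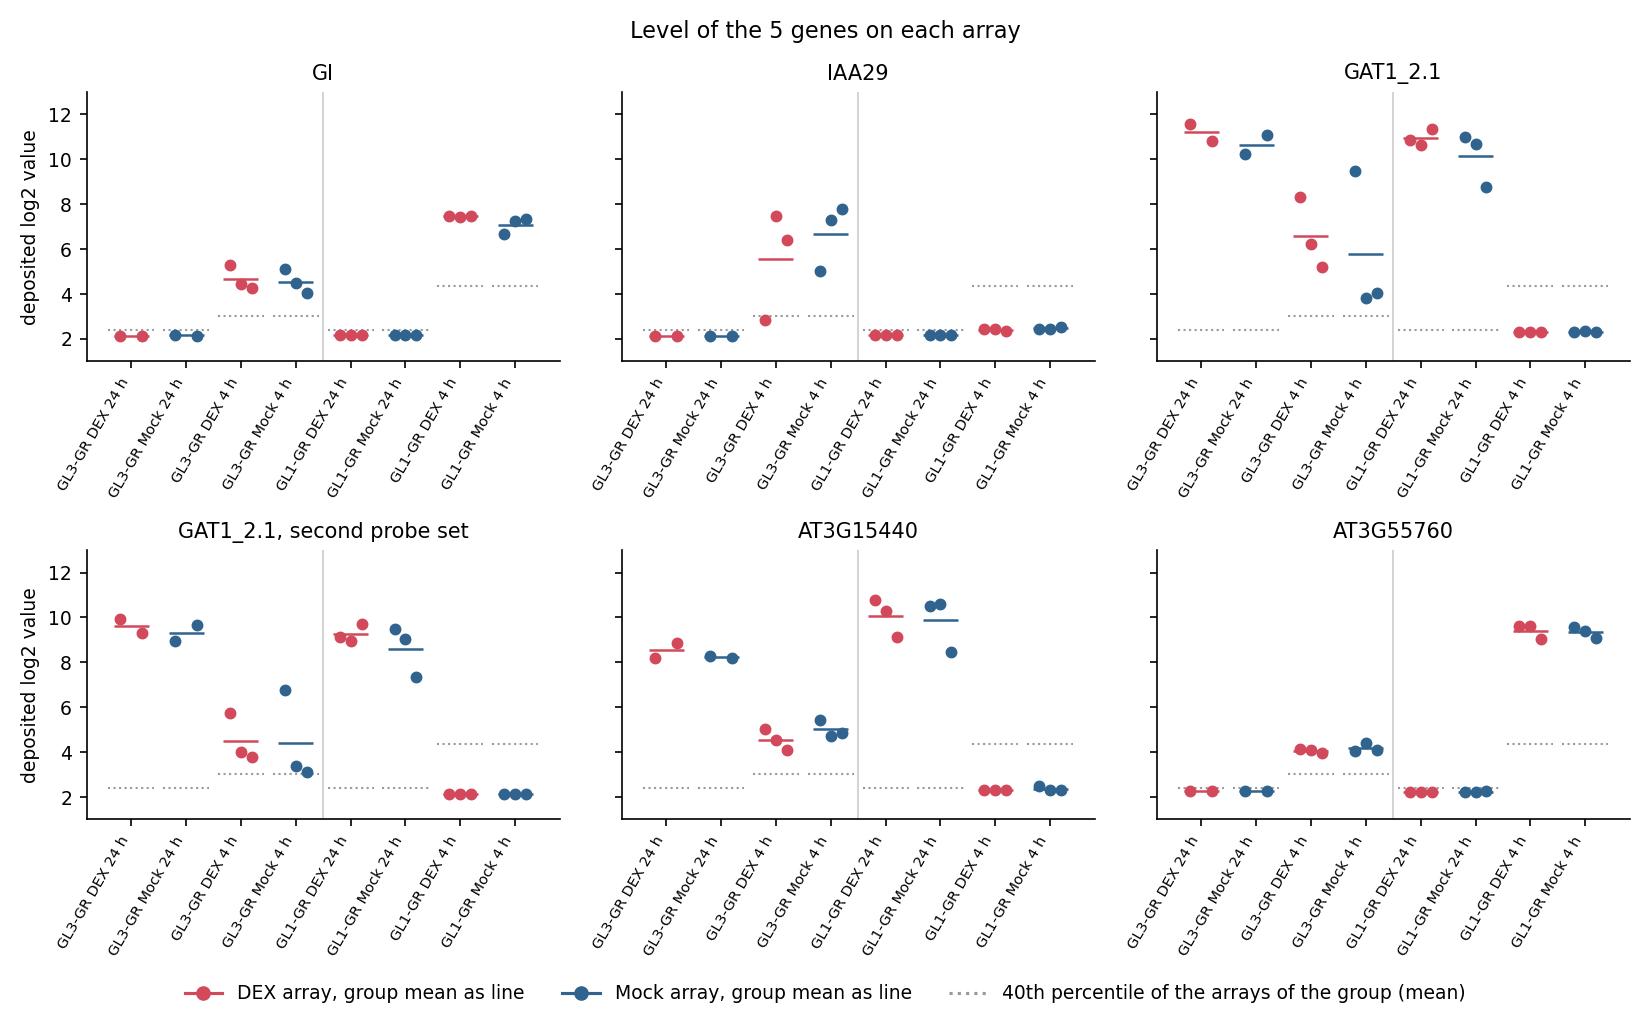
Deposited log2 value (vertical axis) of each gene on each array, with points for the DEX (red) and Mock (blue) arrays of the 8 groups, short solid lines for group means and dotted lines for the 40th percentile of the arrays. *GI* and AT3G55760 lie under the dotted line at 24 h in both lines, *GAT1_2.1* and AT3G15440 lie under it in GL1-GR at 4 h, and *IAA29* lies above it only in GL3-GR at 4 h, where 1 of 6 arrays is under it.

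Among the Mock means of GL3-GR, 2 of the 5 genes were higher at 24 h by 1 or more and 3 were lower by 1 or more, while 66.2% of the 16349 probe sets were higher and 9.32% lower by that size. In GL1-GR, 2 were higher and 2 lower, while 17.4% of all probe sets were higher and 30.6% lower. After quantile normalisation, 1 of the 5 was higher and 3 were lower in GL3-GR (20.5% and 19.4% of all probe sets), and 2 were higher and 2 lower in GL1-GR (20% and 20.7%). For GL3-GR minus GL1-GR at 4 h, 3 of the 5 were higher and 2 lower as deposited (6.02% and 76.2% of all probe sets), and 3 higher and 1 lower after quantile normalisation (22.9% and 23.7%). At 24 h, 0 were higher and 1 lower, as deposited (11.4% and 8.14%) and after quantile normalisation (7.66% and 7.88%). Since the genes were selected on these differences, the counts are not a result. The share of all probe sets without overlap between times or lines was not counted. Ranges given above as not overlapping are therefore a description of these genes only.

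The 6 GL3-GR arrays of 4 h differed among themselves more than those of any other set. The residual SD of *GAT1_2.1* within treatments was 2.51 there, larger than that of 99.9% of the probe sets tested, and that of *IAA29* was 2.01, larger than that of 99.6%. The arrays with sample number 1 stood apart in both treatments. *GAT1_2.1* was highest on them (8.31 in the DEX array, 9.46 in the Mock array) and *IAA29* was lowest (2.84 in the DEX array, 5.03 in the Mock array).

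*GI* was also highest on both arrays of sample number 1, with 5.29 in DEX and 5.12 in Mock, and AT3G15440 likewise, with 5.05 in DEX and 5.44 in Mock. AT3G55760 did not share this, with 4.15 in DEX and 4.04 in Mock inside the range of the other 4 arrays. Over all probe sets, the 2 arrays of sample number 1 correlated at 0.963 with each other, and the 6 arrays of the set at 0.937 to 0.979. The labels give no reason for a difference between sample numbers. Without these 2 arrays, the 24 h minus 4 h difference in GL3-GR Mock arrays was 6.71 for *GAT1_2.1*, -5.39 for *IAA29*, 3.43 for AT3G15440, -2.11 for *GI* and -1.97 for AT3G55760.

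**Figure D2:**
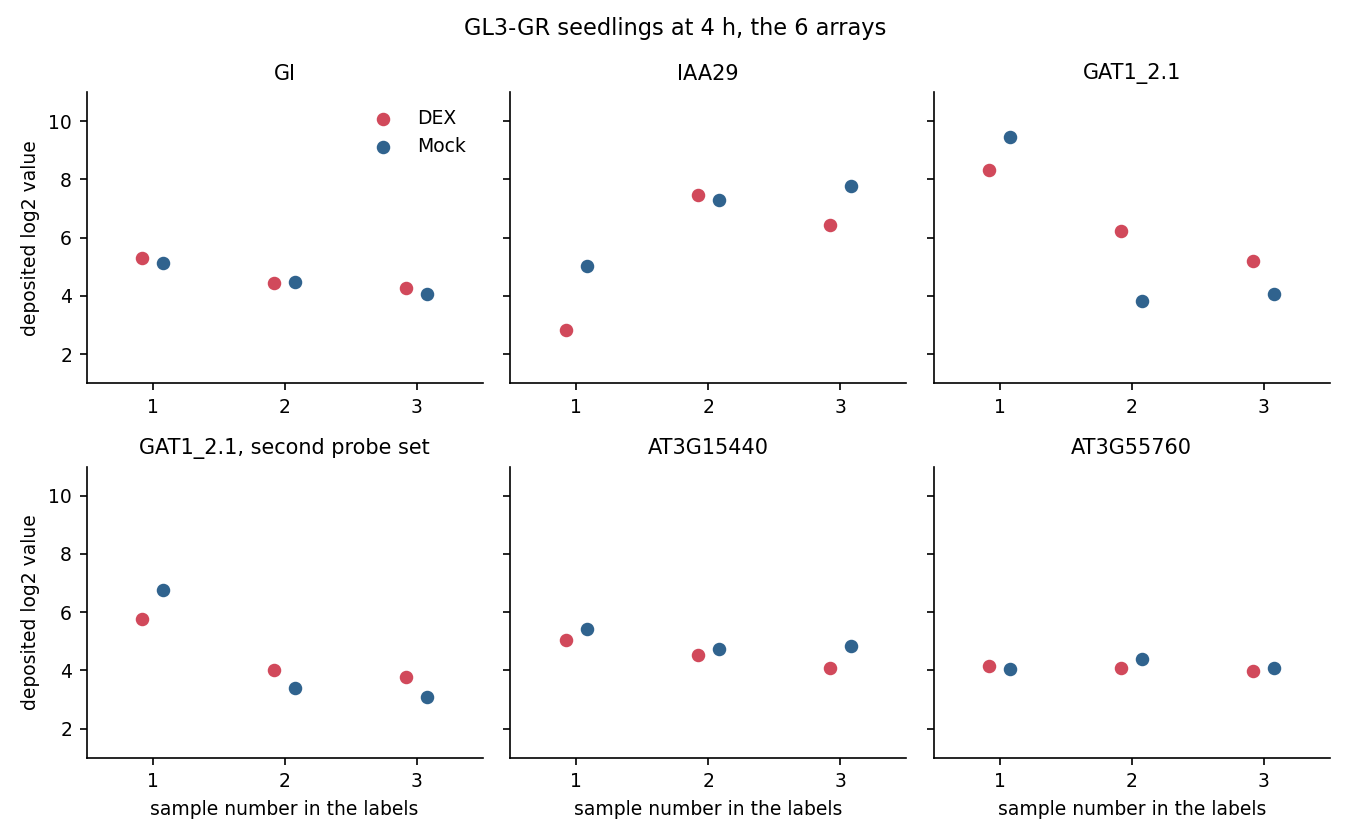
Deposited log2 value (vertical axis) on the 6 GL3-GR arrays of 4 h by the sample number in the labels (horizontal axis), DEX in red and Mock in blue. Both arrays numbered 1 are the highest of their treatment for both probe sets of *GAT1_2.1* and the lowest for *IAA29*, with 8.31 and 2.84 in the DEX array and 9.46 and 5.03 in the Mock array.

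In GL1-GR at 24 h, the large spread of *GAT1_2.1* and AT3G15440 came from arrays with sample number 3. On the Mock array numbered 3, *GAT1_2.1* read 8.77 and AT3G15440 8.48, about 2 below the other Mock arrays. On the DEX array numbered 3, *GAT1_2.1* read 11.35, the highest of the DEX arrays, whereas AT3G15440 read 9.14, the lowest. The residual SDs of 0.89 and 1.04 exceeded those of 98.7% and 99.3% of the probe sets. The 2 genes therefore moved together on the Mock array and apart on the DEX array.

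Few relatives of these genes could be set beside them, because most clock, phytochrome and PIF genes of the lists are not named in the annotation used here. None of the 10 morning clock genes, the 10 other evening clock genes and the 7 clock output genes listed had a named probe set. *XCT* and *PHL*, with roles in circadian timing and in phytochrome-dependent flowering, were added by their annotated names after the files had been seen. On the deposited scale, *PHL* had a 24 h minus 4 h difference of 0.87 in GL3-GR and -2.49 in GL1-GR, and after quantile normalisation of -0.94 and -1.08. *XCT* changed sign with the scale in both lines, with deposited differences of 0.26 in GL3-GR and -0.71 in GL1-GR and quantile differences of -1.64 and 0.39.

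*HYH*, a bZIP factor of light-dependent development and the only 1 of 19 light and growth genes with a named probe set, was 5.31 higher at 24 h than at 4 h in GL3-GR Mock arrays (3.19 after quantile normalisation). It averaged 9.47 ± 0.34 in DEX and 9.35 ± 0.28 in Mock arrays at 24 h (SD, n = 2 each), and 4.08 ± 0.74 in DEX and 4.03 ± 0.52 in Mock arrays at 4 h (SD, n = 3 each). In GL1-GR the difference was 0.34 (-0.01 after quantile normalisation). At 4 h the GL3-GR minus GL1-GR difference of *HYH* was -5.80 in Mock arrays and -4.09 after quantile normalisation, so that, unlike that of *GI*, it stayed on the shared scale.

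Besides *IAA29*, 4 Aux/IAA genes passed the filter. *IAA30* resembled *IAA29*, with 4.00, 4.96 and 3.99 in DEX and 3.96, 4.78 and 5.70 in Mock arrays of GL3-GR at 4 h, and 2.14 on all 4 arrays of GL3-GR at 24 h. The 24 h minus 4 h difference of *IAA30* in Mock arrays was -2.67 in GL3-GR (-4.23 after quantile normalisation). In GL1-GR it was below the filter level at both times, as *IAA29* was, and no difference is given. *IAA18* ran the other way and was higher at 24 h by 4.91 in GL3-GR (2.26 after quantile normalisation) and by 1.36 in GL1-GR (1.19). *IAA31* and *IAA34*, which like *IAA30* were added to the list by name after the files had been seen, were above the filter level on at most 1 array of any group, and no difference is given.

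Beside *GAT1_2.1*, the 4 measured genes of a list of transcripts known from sugar starvation and darkness were *MCCA* and *IVD*, which encode mitochondrial enzymes of leucine breakdown, *KINB1* (AKINBETA1), which encodes a beta subunit of the SnRK1 kinase, and AT3G15450. All 4 were higher at 24 h in GL1-GR, by 4.82 for *MCCA*, 3.57 for *IVD*, 4.66 for *KINB1* and 5.96 for AT3G15450, and by 3.45 to 6.30 after quantile normalisation. In GL3-GR they were 2.57 to 3.13 higher as deposited, but only 0.63 to 0.82 higher after quantile normalisation for *MCCA*, *IVD* and AT3G15450, and *KINB1* was at -0.02. The median of the 4 was 4.74 in GL1-GR, where the median of all probe sets was -0.13, and 2.93 in GL3-GR, where that of all probe sets was 1.98.

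*MCCA* read 7.19 to 7.80 in DEX and 7.08 to 7.55 in Mock arrays of GL1-GR at 4 h, well above the filter level, whereas *GAT1_2.1* was below it there. On the GL3-GR arrays of 4 h, *MCCA* read 10.75, 10.34 and 10.26 in DEX and 10.92, 8.64 and 8.45 in Mock, and *IVD* read 10.58, 10.28 and 10.56 in DEX and 11.14, 9.20 and 9.34 in Mock. Both were thus highest on the Mock array of sample number 1, as was *GAT1_2.1*. *MCCA* had the highest correlation with *GAT1_2.1* over the 22 arrays (r = 0.986), followed by the glutaredoxin gene *ROXY2* (r = 0.981) and AT3G15630 (r = 0.972).

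Of the 6 starch genes tested, 5 were at least 1 lower at 24 h than at 4 h in GL1-GR Mock arrays on both scales, as were 30.6% of all probe sets as deposited and 20.7% after quantile normalisation. *APL3*, which encodes a large subunit of ADP-glucose pyrophosphorylase, read 2.12 to 2.13 in both DEX and Mock arrays of GL1-GR at 24 h. At 4 h it read 8.97, 9.07 and 9.66 in DEX and 8.58, 8.23 and 8.31 in Mock arrays of GL1-GR. *APL3* was at least 5.96 lower at 24 h in GL1-GR as deposited and at least 4.64 lower after quantile normalisation. For *APL4*, which encodes another large subunit, these bounds were at least 3.62 and at least 1.67.

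*SBE2.2* (branching enzyme), *PWD* (phosphoglucan, water dikinase) and *DPE1* (disproportionating enzyme) had differences of -1.43, -1.37 and -1.26 in GL1-GR. In GL3-GR the same 3 genes had differences of 2.06, 2.01 and 1.70 as deposited, but of -0.53, -0.60 and -0.93 after quantile normalisation. *APL3* and *APL4* were below the filter level at both times in GL3-GR, and *QQS* was so in the Mock arrays of both lines, so that no difference is given for them there. Of these genes, *SBE2.2* and *QQS* were added to the list by their annotation after the files had been seen. The median difference of the 6 was -1.40 in GL1-GR, where that of all probe sets was -0.13. It counts *QQS* at 0.01, although *QQS* was below the filter level at both times. With 3 of the 6 below the filter level at both times, no median is given for GL3-GR. AT3G55760 and *APL3* thus shared their order in GL1-GR, but at 4 h in GL3-GR AT3G55760 was above the filter level and *APL3* (2.41 to 2.97) at or below it.

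**Figure D3:**
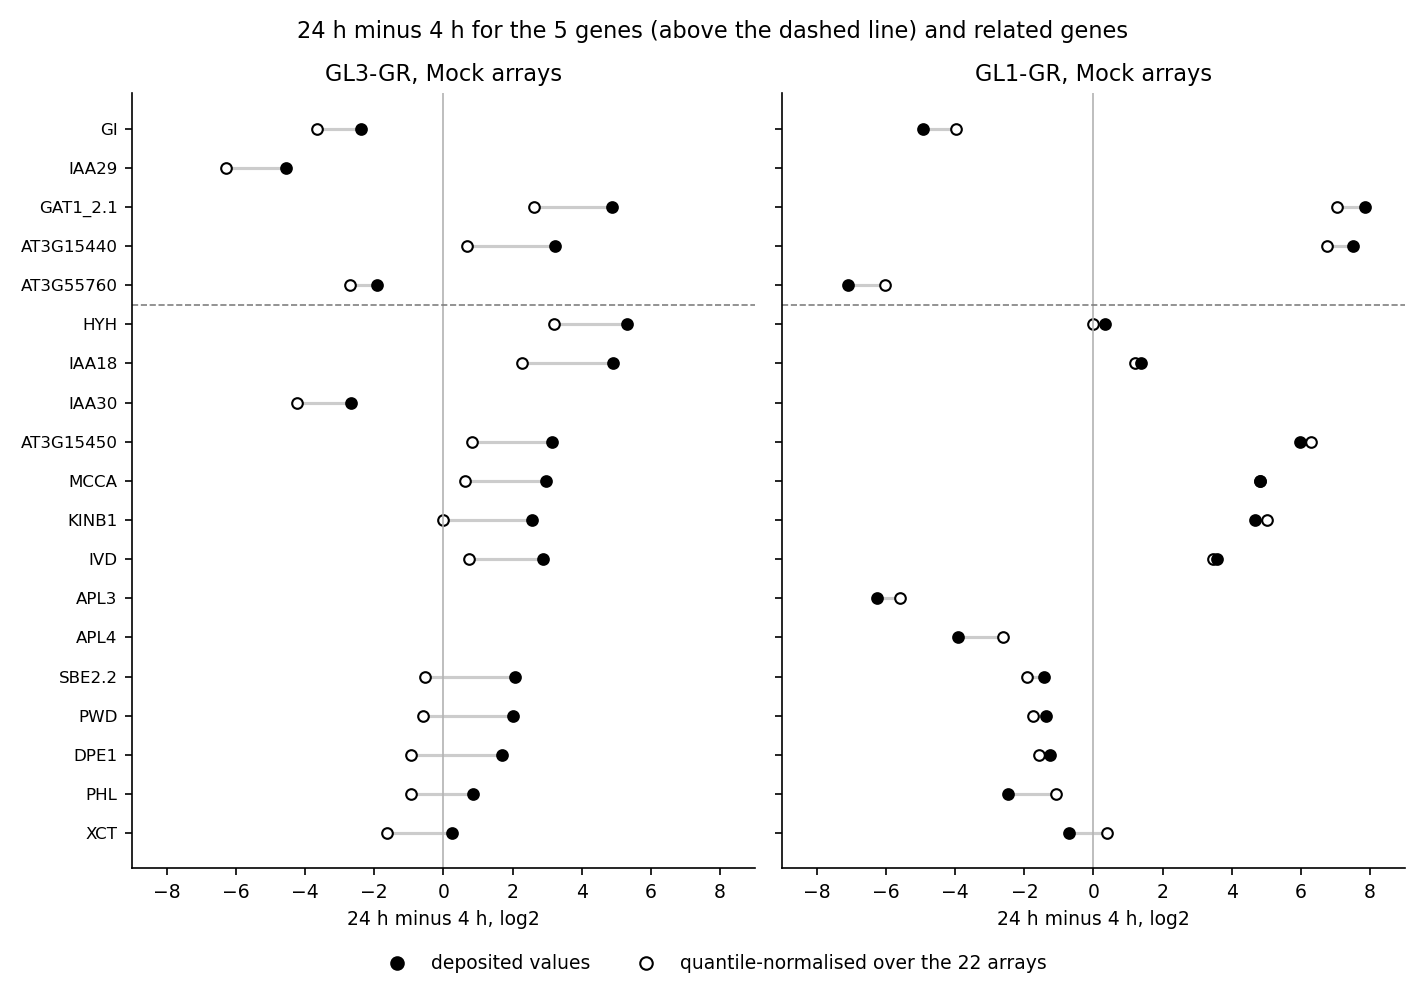
Difference of the Mock means, 24 h minus 4 h in log2 (horizontal axis), for the 5 genes above the dashed line and for related genes below it, in GL3-GR (left) and GL1-GR (right). Filled points are deposited values and open points quantile-normalised values. No point is drawn where a gene was above the filter level on fewer than 2 Mock arrays at both times. The 2 scales differ more in GL3-GR, where AT3G15440 has a difference of 3.22 on the one and 0.69 on the other.

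The genes with the most similar course over the 22 arrays are named here with Pearson's r as a description, since the arrays share sets and treatments. For *GI* they were AT5G17910 (r = 0.988), AT1G05950 (r = 0.987) and AT2G01330 (r = 0.985). For *IAA29* they were AT1G57550 (r = 0.981), AT2G35460 (r = 0.977) and AT4G35370 (r = 0.975), and AT2G35460 and AT1G57550 were also among the 3 highest after subtraction of the set means (r = 0.948 and 0.926). Both lay low, with AT1G57550 at 2.77 to 4.05 in DEX and 3.07 to 4.59 in Mock arrays of GL3-GR at 4 h. For AT3G15440 they were AT2G37750 (r = 0.986), AT1G33055 (r = 0.985) and AT1G19530 (r = 0.982), and for AT3G55760 AT5G26670 (r = 0.999), AT1G63490 (r = 0.999) and AT2G33680 (r = 0.998).

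After subtraction of the set means, *GAT1_2.1* was most similar to *AR401* (r = 0.963), AT2G40420 (r = 0.961) and AT5G66650 (r = 0.952), and *GI* to AT5G19440 (r = 0.896), AT4G30490 (r = 0.874) and AT4G33540 (r = 0.873). *IAA29* had AT1G33000 in the first place (r = 0.956). Its r values after this subtraction rest mostly on the 6 GL3-GR arrays of 4 h. Its residual SD was 2.01 there, against 0.04 in GL1-GR at 4 h and 0.003 and 0.001 at 24 h. The residual SD of *GAT1_2.1* was also largest in that set, at 2.51 against 0.02 to 0.89 in the other sets. AT3G15440 was most similar to AT1G33790 (r = 0.895), AT2G44370 (r = 0.892) and AT5G61890 (r = 0.865), and AT3G55760 to AT3G22810 (r = 0.798), AT3G49740 (r = 0.778) and AT2G12190 (r = 0.777).

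Whether DEX, and so the release of GL3 or GL1, altered the 5 genes was tested within each line and time with limma, with p-values adjusted over all 16349 probe sets. None of the 5 genes passed an adjusted p of 0.05 in any of the 4 comparisons. Over all probe sets, 0% passed at either time in GL3-GR, and 0.00612% (1 probe set) at each time in GL1-GR. At an unadjusted p under 0.05 none of the 5 genes passed either, while 972 probe sets (5.95%) did in GL3-GR at 24 h, 557 (3.41%) in GL3-GR at 4 h, 361 (2.21%) in GL1-GR at 24 h and 1192 (7.29%) in GL1-GR at 4 h. The smallest unadjusted p of the 20 tests of these genes was 0.101 and the smallest adjusted p 0.717, both for *GI* in GL1-GR at 4 h.

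*GI* was the only gene of the 5 whose DEX and Mock arrays did not overlap. In GL1-GR at 4 h its 3 DEX arrays (7.49, 7.42 and 7.47) were above its 3 Mock arrays (6.67, 7.26 and 7.32), as for 8.19% of all probe sets. The difference was 0.38 (SE 0.19, 95% interval -0.11 to 0.86, limma adjusted p = 0.717). An exact two-sided permutation test gave p = 0.1, the smallest that 3 against 3 arrays allow. In GL3-GR at 4 h, *GI* differed by 0.12 (SE 0.39, 95% interval -0.86 to 1.10). At 24 h its groups in GL3-GR were also apart, as were those of 19.1% of probe sets in the same direction, but there the gene was below the filter level.

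*IAA29* can be read for DEX only in GL3-GR at 4 h. The difference there was -1.12 (SE 1.40, limma adjusted p = 0.960), with a 95% interval from -4.61 to 2.37, and the exact permutation p was 0.6. Without the 2 arrays of sample number 1 it was -0.58 (limma adjusted p = 0.632). With the arrays not paired by sample number, the spread of this gene left room for a change of several log2 units in either direction.

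*GAT1_2.1* was higher on average in DEX arrays in each of the 3 sets in which it was detected. The difference was 0.54 in GL3-GR at 24 h (SE 0.49, 95% interval -1.17 to 2.25, limma adjusted p = 0.845), 0.80 in GL3-GR at 4 h (SE 1.75, 95% interval -3.57 to 5.17, limma adjusted p = 0.977) and 0.80 in GL1-GR at 24 h (SE 0.67, 95% interval -0.96 to 2.56, limma adjusted p = 0.999). The DEX and Mock arrays overlapped in all 3 sets, and the exact permutation p was 0.667, 0.6 and 0.5. The other probe set of the gene differed by less, by 0.31 in GL3-GR at 24 h (SE 0.40), 0.10 in GL3-GR at 4 h (SE 1.13) and 0.65 in GL1-GR at 24 h (SE 0.64), and averaged 0.27 over the 4 sets. Without the 2 arrays of sample number 1, the difference in GL3-GR at 4 h was 1.77 (limma adjusted p = 0.280), from 6.23 and 5.21 in DEX arrays against 3.84 and 4.06 in Mock arrays.

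AT3G15440 differed by 0.31 in GL3-GR at 24 h (SE 0.29, 95% interval -0.69 to 1.31), by -0.45 in GL3-GR at 4 h (SE 0.32, 95% interval -1.25 to 0.34) and by 0.20 in GL1-GR at 24 h (SE 0.78, 95% interval -1.85 to 2.24). AT3G55760 had a difference of -0.10 in GL3-GR at 4 h (SE 0.15, 95% interval -0.49 to 0.28) and 0.06 in GL1-GR at 4 h (SE 0.23, 95% interval -0.52 to 0.64). Its 24 h minus 4 h difference in GL1-GR was -7.18 in DEX and -7.11 in Mock arrays. With the gene below the filter level at 24 h, these 2 values follow its 4 h means and add nothing on DEX.

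Averaged over the 4 sets in a fit to all 22 arrays, DEX minus Mock was 0.12 for *GI* (95% interval -0.16 to 0.40), -0.29 for *IAA29* (-1.19 to 0.60), 0.53 for *GAT1_2.1* (-0.67 to 1.73), -0.00 for AT3G15440 (-0.52 to 0.52) and -0.01 for AT3G55760 (-0.19 to 0.17). These averages include the sets in which a gene was below the filter level, which were 3 of the 4 for *IAA29*, 2 for *GI* and AT3G55760 and 1 for *GAT1_2.1* and AT3G15440. Such sets had differences close to 0 and carry no measured response, so that the averages and their intervals are not those of the sets in which the gene was detected. None of the 5 passed, at a smallest limma adjusted p of 0.999, where 0.0122% of all probe sets passed. At an unadjusted p under 0.05, 4.34% of all probe sets and none of the 5 passed. Exact two-sided permutation of the treatment labels within sets gave p = 0.286 for *GI*, 0.507 for *IAA29*, 0.328 for *GAT1_2.1*, 0.997 for AT3G15440 and 0.862 for AT3G55760, over 48000 relabellings.

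The DEX response was not found to differ between times or lines for any of the 5 genes, with a smallest limma adjusted p of 0.818 over 20 interaction tests. Of all probe sets, 0.00612% passed for 24 h minus 4 h in GL3-GR and in GL1-GR, 0.0306% for GL3-GR minus GL1-GR at 4 h and 0% at 24 h. At an unadjusted p under 0.05, 5.39%, 1.57%, 9.2% and 0.765% passed in that order, and none of the 5 genes. Only 6 of the 20 tests set 2 responses against each other that were both measured above the filter level, with a smallest limma adjusted p of 0.863, and none of these 6 was for *IAA29*. For GL3-GR minus GL1-GR at 4 h, the difference in DEX response was -0.26 for *GI* (95% interval -1.01 to 0.49) and -0.17 for AT3G55760 (-0.64 to 0.30). For 24 h minus 4 h in GL3-GR it was -0.26 for *GAT1_2.1* (-3.84 to 3.32) and 0.76 for AT3G15440 (-0.78 to 2.30). For GL3-GR minus GL1-GR at 24 h it was -0.26 for *GAT1_2.1* (-3.84 to 3.31) and 0.11 for AT3G15440 (-1.43 to 1.65). The residual SD of *GAT1_2.1* was 0.56 in GL3-GR and 0.89 in GL1-GR at 24 h, but 2.51 in GL3-GR at 4 h. Its interval at 24 h thus takes in the spread of arrays that this comparison does not use. The 4 h intervals of *GI* and AT3G55760 likewise take in the 24 h arrays, where both genes were below the filter level. Residual SDs at 24 h were 0.003 in GL1-GR and 0.015 in GL3-GR for *GI*, and 0.014 and 0.013 for AT3G55760. At 4 h they were 0.26 and 0.54 for *GI*, and 0.31 and 0.15 for AT3G55760. These 4 h intervals are therefore likely too narrow.

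None of the related genes passed for DEX either. In the tests within the 4 sets, 4 of them had an unadjusted p under 0.05. In GL1-GR at 4 h, *APL3* was 0.86 higher in DEX arrays (SE 0.21, limma adjusted p = 0.581) and *APL4* 0.81 higher (SE 0.30, limma adjusted p = 0.676). In GL3-GR at 4 h, *PWD* had a difference of -0.56 (SE 0.15, limma adjusted p = 0.960) and *SBE2.2* one of -0.92 (SE 0.37, limma adjusted p = 0.960). These were 2 of the 6 tested starch genes in each set, with differences above 0 in GL1-GR and below 0 in GL3-GR, where 7.29% of all probe sets passed that p in GL1-GR at 4 h and 3.41% in GL3-GR at 4 h. *SBE2.2* is among the genes added after the files had been seen. Averaged over the 4 sets, *APL3* was at 0.25, with an unadjusted p of 0.00938 and a limma adjusted p of 0.999.

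**Figure D4:**
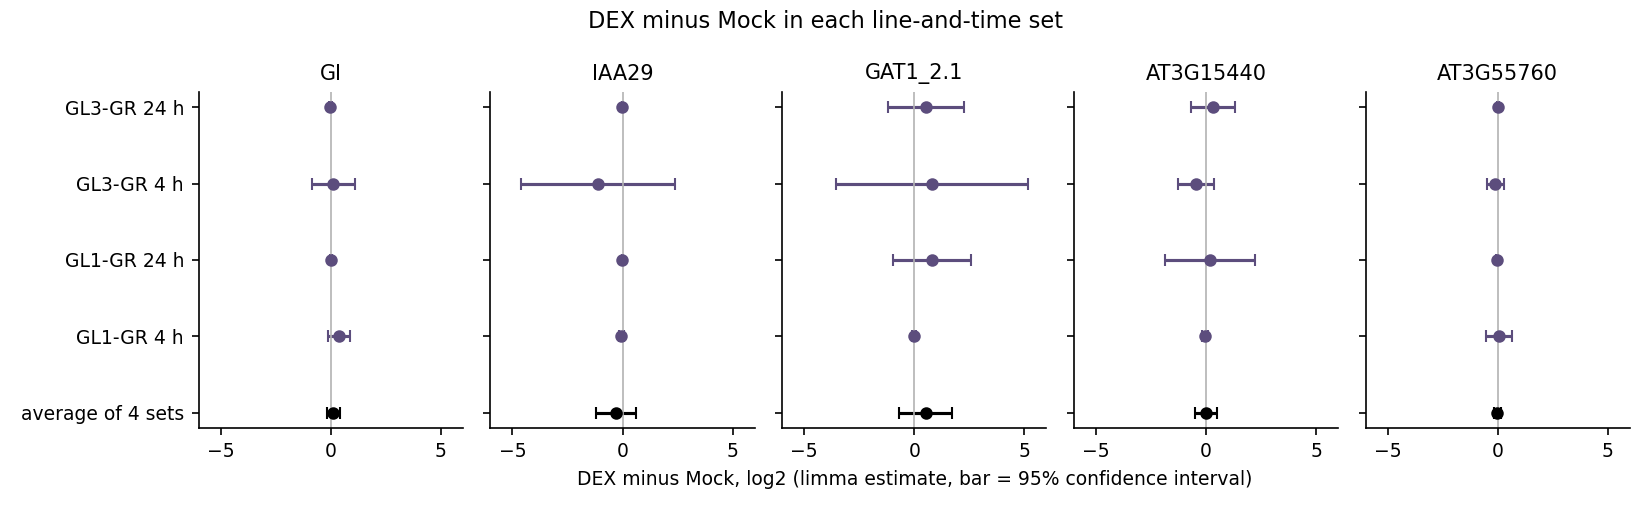
DEX minus Mock in log2 (horizontal axis) for the 5 genes in the 4 line-and-time sets and averaged over them, as limma estimates with 95% confidence intervals. Sets in which a gene was below the filter level are drawn but carry no measured response. All intervals include 0, and the widest, for *GAT1_2.1* (-3.57 to 5.17) and *IAA29* (-4.61 to 2.37), are those of GL3-GR at 4 h.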

How the data were processed

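Levels were measured on 22 Affymetrix ATH1 arrays, grouped by the sample labels. The values the authors deposited had been normalised with GCRMA and are on the log2 scale, as read from their range. The RNA was amplified and labelled with biotin by the Ovation method of NuGEN. GCRMA sets undetected probe sets to a floor, and the lowest value differed between the 4 line-and-time sets of arrays. Whether these were normalised in separate runs, and how they were centred, is not given in the sources used here. The labels number the samples without saying that they came from separate plants. The study's methods state that the RNA came from biologically independent materials. The p-values measure biological spread only insofar as each array came from its own material.

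The 64 control probe sets were left out. Probe sets above the 40th percentile of their array on at least 2 arrays were tested with limma 3.58.1 in R 4.3.3 (lmFit, eBayes), each line and time on its own arrays, and the average and the interactions on all 22, with Benjamini-Hochberg adjustment over 16349 probe sets. On simulated data, with 100 changed probe sets per size, the test recovered a change of 1 or 2 in log2 for 35% and 58% (GL3-GR at 24 h), 2% and 22% (GL3-GR at 4 h), 45% and 77% (GL1-GR at 24 h) and 69% and 87% (GL1-GR at 4 h). These changes were added to randomly chosen probe sets with their own spread. Where detected, *GAT1_2.1* and *IAA29* had larger residual SDs than 98.7% to 99.9% of the probe sets, so these rates are not theirs. The residual SD of AT3G15440 exceeded 99.3% in GL1-GR and 92.8% in GL3-GR at 24 h, and 57.2% in GL3-GR at 4 h. At 4 h, that of *GI* exceeded 80.9% in GL1-GR and 72.1% in GL3-GR, and that of AT3G55760 88.6% and 12.1%. Where the spread of a gene was above that of most probe sets, the rates may be too high for it as well. Rates for single genes were not simulated. The average and the interactions took 1 variance per gene over all 22 arrays, although the sets differed in spread. The number of arrays limits the precision.

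"At least" differences set the detected group's mean against the 40th percentile of the arrays on which the gene was below it. Genes with several probe sets are given by the one with the highest mean. Alternatives were quantile normalisation, no filter, array weights, a shared fit, the methods' t-test, a replicate block and leaving out arrays. The genes and lists were chosen with earlier results of these data known. Named genes are the 5 genes, list genes with a passing DEX test (none), up to 4 per list with the largest 24 h minus 4 h difference of one sign in both lines on both scales, and the 3 most correlated genes. The other genes of small lists were named after their values had been seen. Probe sets were named from GEO's platform annotation (13513 with 1 gene, 503 with several, 8730 unnamed here) and symbols updated through RefSeq TAIR10.1.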

Additional observations from a re-analysis of the deposited data

How the results depend on the processing

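No setting brought a DEX difference of the 5 genes past the threshold. Of 925 values under the alternatives, 75 had another sign than the reported one, the largest of them 0.71 in size, and none had an adjusted p under 0.05. The smallest limma adjusted p was 0.107, for *GAT1_2.1* averaged over the 4 sets (0.77) without the 2 GL3-GR arrays of sample number 1 at 4 h, which is an alternative chosen after seeing the data. None of the 24 h minus 4 h and line differences of 1 or more changed sign. With quantile normalisation, AT3G15440 for 24 h minus 4 h in GL3-GR dropped below 1 in Mock arrays (0.69) but not in DEX arrays (1.49). For GL3-GR minus GL1-GR at 4 h, *GI* in Mock arrays was -0.07 with quantile normalisation and -0.20 with median centring.

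Counts over all probe sets moved more, and the cause was not tested. In GL1-GR at 4 h, 1 probe set passed as reported, 4 in the fit shared by all arrays, 0 with the replicate block, quantile normalisation or the methods' t-test after Benjamini-Hochberg, and 0 to 1 when each array was left out. In GL1-GR at 24 h, 1 passed as reported and 0 in the shared fit, with the replicate block, with quantile normalisation and with any array left out. In GL3-GR at 4 h, 0 passed as reported and 146 in the shared fit. For the average, 2 passed as reported, 780 with array weights, 6 without the 6 GL3-GR arrays of 4 h, 540 without sample number 1 of that set, and 1 to 102 with each array left out, the highest without the GL3-GR DEX array of sample number 1 at 4 h.

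For the DEX response at 24 h minus 4 h in GL3-GR (1 as reported) the counts were 0 with the replicate block, 5 with quantile normalisation, 3 without the filter, 909 with array weights, 950 without sample number 1 and 0 to 281 with an array left out. In GL1-GR (1 as reported) they were 12 with array weights, 2 without sample number 1 and 1 to 2 with an array left out. For GL3-GR minus GL1-GR at 4 h (5 as reported) they were 2 with the replicate block, 12 with quantile normalisation, 8 without the filter, 1358 with array weights, 1747 without sample number 1 and 2 to 621 with an array left out, the highest without the GL3-GR DEX array of sample number 1. At 24 h (0 as reported) they were 0 to 1 with an array left out.

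The sample numbers were not taken as pairs, and the labels do not give them as such. The deviations of same-numbered arrays correlated at 0.28, 0.26 and 0.07 in GL3-GR at 4 h and 0.06, 0.16 and 0.35 in GL1-GR at 24 h. They correlated at 0.03, 0.02 and 0.10 in GL1-GR at 4 h and -0.14 in GL3-GR at 24 h. These values were low but above 0 for every number outside GL3-GR at 24 h, so they do not exclude a pairing. In GL3-GR at 4 h 5 of 6 arrays correlated best with their own number, in GL1-GR at 24 h 3 of 6 and in GL1-GR at 4 h 4 of 6. With the numbers crossed in GL3-GR at 24 h, a choice made after seeing the data, 0 probe sets passed. The replicate block changed no call of the 5 genes. The intervals given for GL3-GR at 4 h come from the fit without this block. They therefore include any shift shared by the arrays of a sample number.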
